A study of Homo sapiens with 6 samples.

Results

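The Hippo pathway output examined here was a set of 10 genes: the coactivator genes *YAP1* and *WWTR1* (which encodes TAZ), the DNA-binding factor genes *TEAD1* and *TEAD4*, the target genes *CYR61*, *CTGF* and *ANKRD1*, and the feedback regulators *AMOTL1*, *AMOTL2* and *LATS2*. They were picked by gene symbol, and all 10 were found among the 58735 genes of the table. *CYR61* and *CTGF* are the older symbols of CCN1 and CCN2. RNA was sequenced from 3 libraries of wild strain TPC-1, which is a line of human papillary thyroid carcinoma cells, and from 3 libraries of *RRM2*-OE-TPC-1, the same line infected with a lentivirus that expresses *RRM2* from a CMV promoter and then selected with puromycin. *RRM2* encodes the small subunit of ribonucleotide reductase, the enzyme that makes deoxyribonucleotides. The methods describe poly(A) selection, whereas the labels describe removal of ribosomal RNA and digestion with RNase R, an enzyme that degrades linear RNA. Which of them made these libraries is not settled, so how far FPKM stands for linear mRNA is not known. Both groups were grown in RPMI medium with fetal bovine serum. The wild strain carries no vector, so *RRM2*, infection, selection and the time spent in culture since cannot be told apart in this comparison. Whether the *RRM2*-OE-TPC-1 cells were a single clone or a pool was not given in the sources used here. Replicates 2 and 3 of *RRM2*-OE-TPC-1 carry the genotype names RRM3 and RRM4 in their labels but *RRM2* in their titles, and the titles were followed. The paper describes 3 biological replicates per cell line, without saying how their cultures were kept apart. The libraries of a group came from the same cell line, so p-values measure only the spread between these samples, which may be technical.

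Hippo signaling is a kinase cascade that restrains growth and responds to cell density, cell shape and stiffness. The kinases MST (genes *STK3* and *STK4*) and LATS (*LATS1* and *LATS2*) phosphorylate YAP and TAZ, which are then held in the cytoplasm or degraded. When they are not phosphorylated, YAP and TAZ enter the nucleus and bind TEAD proteins, because neither coactivator binds DNA by itself. *CYR61* and *CTGF* encode secreted matricellular proteins and are among the targets most used as a readout of this complex. *ANKRD1* encodes an ankyrin repeat protein and is another such readout. *LATS2* and *AMOTL2* are targets whose products in turn restrain YAP. This control acts largely on the proteins, whose phosphorylation and location were not measured in these libraries.

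TEAD proteins recognise the MCAT element, whose core reads GGAATG on one strand and CATTCC on the other. The promoter of *CTGF* is shown because *CTGF* had the largest tested change of the set and the most copies of this core. The RefSeq table (build GRCh38.p14, 250 bases before to 50 bases after each start) held 9 windows for 7 of the 10 genes, with CYR61, TEAD1 and TEAD4 missing. The core was found, on either strand, in windows of 5 of the 7 genes, namely *CTGF*, *ANKRD1*, *YAP1*, *AMOTL2* and *LATS2*. *CTGF* held 3 copies, which begin at positions -169, -104 and -95 before the start. Below are the 250 bases before the *CTGF* start (chr6:131951373-131951622, minus strand), 5′ to 3′, with the core in capitals.
CTGF promoter: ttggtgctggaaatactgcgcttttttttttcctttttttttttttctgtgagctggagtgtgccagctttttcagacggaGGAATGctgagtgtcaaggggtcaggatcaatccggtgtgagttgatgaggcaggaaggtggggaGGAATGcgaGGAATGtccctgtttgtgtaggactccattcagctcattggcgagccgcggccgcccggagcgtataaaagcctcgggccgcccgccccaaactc

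The other 4 genes held 1 copy each, or 2 in the case of *ANKRD1*, and are shown with 10 bases on each side so that the flanks can be compared. The copies of *ANKRD1* begin at positions -220 (chr10:90921292-90921317, minus strand) and -128 (chr10:90921200-90921225, minus strand), counted so that -1 is the last base before the RefSeq start. The second lies in an exon of the gene as GENCODE 29 draws it. The copy of *YAP1* begins at -162 (chr11:102110275-102110300, plus strand), and that of *LATS2* begins 10 bases into the RefSeq transcript (chr13:21061562-21061587, minus strand). In GENCODE 29 this *LATS2* copy lies outside the gene. *AMOTL2* has 2 windows, and the second holds the core on the other strand at -69 (chr3:134374501-134374526, minus strand), which is exonic in GENCODE 29.
ANKRD1 site 1: caccaccaaaGGAATGgccctctcac
ANKRD1 site 2: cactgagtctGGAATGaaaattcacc
YAP1 site: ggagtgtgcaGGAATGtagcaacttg
AMOTL2 site: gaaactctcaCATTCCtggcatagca
LATS2 site: tgacgcccgtGGAATGccaacaatgt

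At least 1 core was present in 14.03% of all 35116 windows of the table, at least 2 in 1.37% and at least 3 in 0.128%. The windows of *WWTR1* and *AMOTL1* held none. The AP-1 element TGACTCA, read on both strands, was in 0 of the 9 windows of these genes and in 4.95% of all windows. The CArG box, the element of serum response factor, was in 0 of the 9 windows and in 1.29% of all windows. A match of these letters is a description of the window and does not show binding.

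The authors deposited FPKM, reads divided by gene length and by a depth for each library. This depth was 1.03 to 1.05 times the reads on genes in wild strain TPC-1 and 0.997 to 1.01 times in *RRM2*-OE-TPC-1. Median-of-ratios factors, which bring most genes to a common level, stood at 1.006 to 1.008 of the relative depth in every library. The deposited scaling thus follows such factors more closely than library totals. Levels can be compared between genes as FPKM, not as numbers of molecules. Reads on genes numbered 14317091 to 17084067 per library, and mitochondrial genes took 4.29% to 5.89% of them. *RRM2* (ENSG00000171848, chromosome 2, 10120698 to 10131419), measured first as a check of the labels, stood at 9.17, 9.05 and 8.52 FPKM in wild strain TPC-1 and at 50.4, 47.5 and 47.2 FPKM in *RRM2*-OE-TPC-1. Its lentiviral and endogenous transcripts share these reads. Of the thyroid lineage markers, *PAX8* was high, at a mean of 69.3 FPKM in wild strain TPC-1 and 58.5 FPKM in *RRM2*-OE-TPC-1, *FOXE1* was at a mean of 4.30 and 3.19 FPKM and *HHEX* at 2.47 and 4.61 FPKM, *NKX2-1* was at 0 in every library, and *TG* and *TSHR* were under 0.1 FPKM on average in both groups. The summed level of 6 epithelial markers was 42.9 to 47.1 FPKM in wild strain TPC-1 and 88.4 to 90.8 FPKM in *RRM2*-OE-TPC-1, mostly through *KRT18*, while *EPCAM* and *CDH1* stayed under 0.1 FPKM on average. The sums for 7 fibroblast markers were 2.79 to 3.19 and 2.79 to 2.96 FPKM (*COL1A2*, *COL3A1* and *DCN* at 0), those for 6 endothelial markers 1.10 to 1.37 and 0.473 to 0.542 FPKM (*KDR* at 0, *PECAM1* at a mean of 0.924 and 0.0588 FPKM and *TEK* at 0.261 and 0.397 FPKM), and those for 5 leukocyte markers 0 to 0.0221 and 0.0577 to 0.129 FPKM (*CD3E* and *LYZ* at 0). The part of these markers in the results that follow was not tested. In *RRM2*-OE-TPC-1, replicate 1 lay further from replicates 2 and 3 (chi-square per degree of freedom of the reads over genes 5.02 and 5.68) than these lay from each other (1.81), while the pairs of wild strain TPC-1 gave 2.92 to 3.08. Values that move without replicate 1 are given beside the genes they touch.

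In wild strain TPC-1 the transcripts of the complex and most of its targets were abundant. *CYR61* led at 260.4 FPKM, above 99.4% of the tested genes. *WWTR1* (47.8), *AMOTL2* (43.5), *YAP1* (41.8), *CTGF* (40.4) and *TEAD1* (36.0) followed in a narrow band of mean FPKM. *WWTR1* overlapped *AMOTL2* and *YAP1* overlapped *CTGF* across libraries, so the order within these pairs is not beyond their spread. *LATS2* (13.99), *TEAD4* (12.3) and *AMOTL1* (10.7) were lower in mean FPKM, and *ANKRD1* was close to 0 at 0.0207 FPKM. In *RRM2*-OE-TPC-1 the order changed at the upper end. *CYR61* again led at 233.0 FPKM, *CTGF* now came second at 73.1 FPKM, *WWTR1* followed at 67.2 FPKM, and *AMOTL2* (41.1), *YAP1* (35.1) and *TEAD1* (32.4) came next in mean FPKM. *LATS2* was at 18.8, *TEAD4* at 14.2, *AMOTL1* at 13.9 and *ANKRD1* at 0.447 mean FPKM, with *TEAD4* and *AMOTL1* overlapping.

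**Figure D1:**
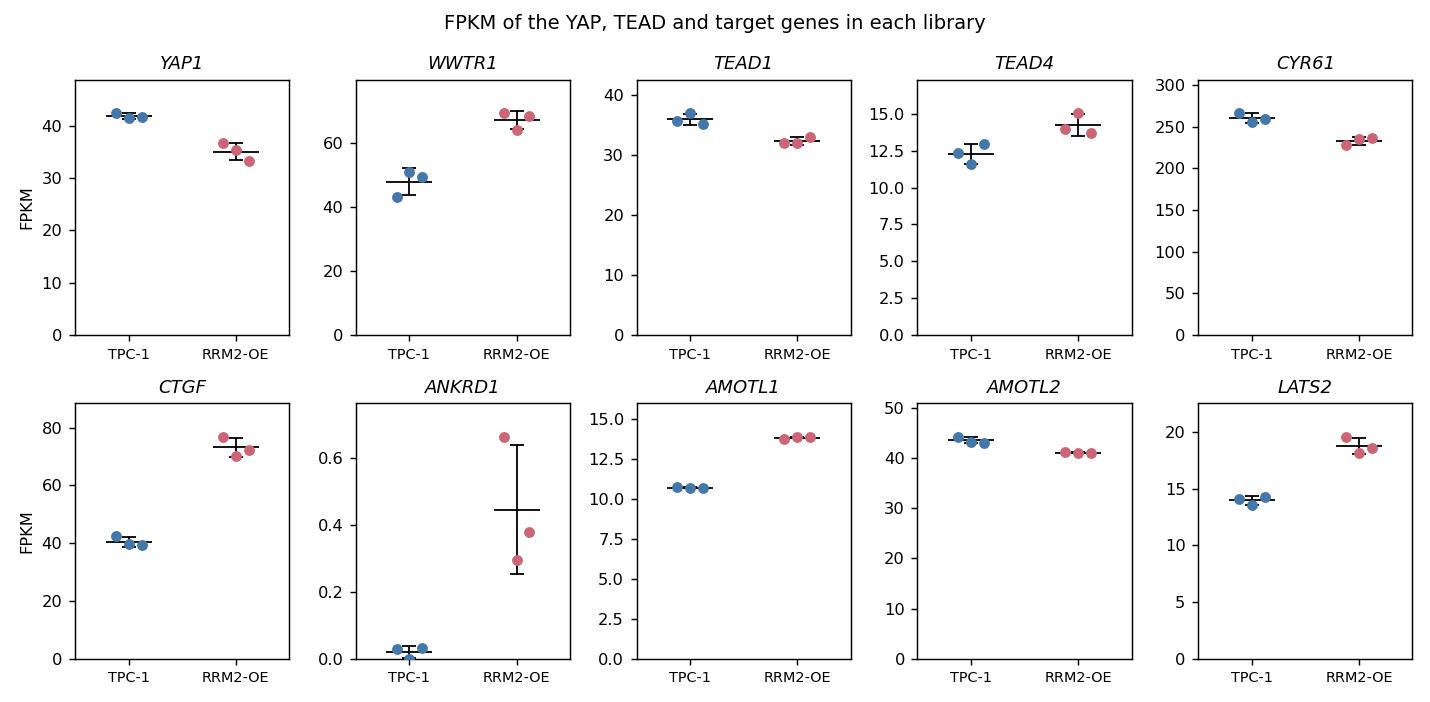
FPKM of each of the 10 genes in the 3 libraries of wild strain TPC-1 and the 3 of *RRM2*-OE-TPC-1. Points are libraries, horizontal lines are group means, error bars are SDs, and each panel has its own axis from 0. The groups are apart in every panel, upward by the widest margin relative to the level for *ANKRD1* and *CTGF*, and downward by a small margin for *AMOTL2*.

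Comparing *RRM2*-OE-TPC-1 with wild strain TPC-1, the 9 genes that could be tested moved in both directions, each by less than 1 on the log2 scale, and *ANKRD1*, too low to test, had more reads. Of the 9, *CTGF*, *WWTR1*, *LATS2*, *AMOTL1* and *TEAD4* were higher, and *YAP1*, *CYR61*, *TEAD1* and *AMOTL2* were lower. In bulk RNA of a culture, fewer cells that express a gene and less RNA per cell cannot be told apart. Each gene was tested with limma on log2(FPKM + 0.1), over the 13621 genes with at least 0.5 FPKM and at least 10 reads in at least 3 libraries, with Benjamini-Hochberg adjustment of p. *ANKRD1* did not pass this filter. The 9 that did were all called at an adjusted p of at most 0.05, as were 67.6% of all tested genes. Without replicate 1 of *RRM2*-OE-TPC-1 8 of the 9 were called, *AMOTL2* being lost. In the upward direction it was 5 genes, against 34.9% of all tested genes, and in the downward direction 4 genes, against 32.7%. When a log2 fold change of at least 1 in size was asked for as well, 0 of the 9 were called, against 11.5% of all tested genes, 4.48% upward and 6.97% downward. The groups had no overlapping values in 9 of the 9, and in 72.2% of all tested genes. The median log2 fold change was 0.21 over the 9 genes and 0.01 over all tested genes, and the median absolute log2 fold change was 0.26 and 0.37. By absolute log2 fold change *CTGF* lay above 83.7% of all tested genes and *WWTR1* above 62.0%, and the other 7 lay lower, between *AMOTL2* at 12.4% and *LATS2* at 55.6%.

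**Figure D2:**
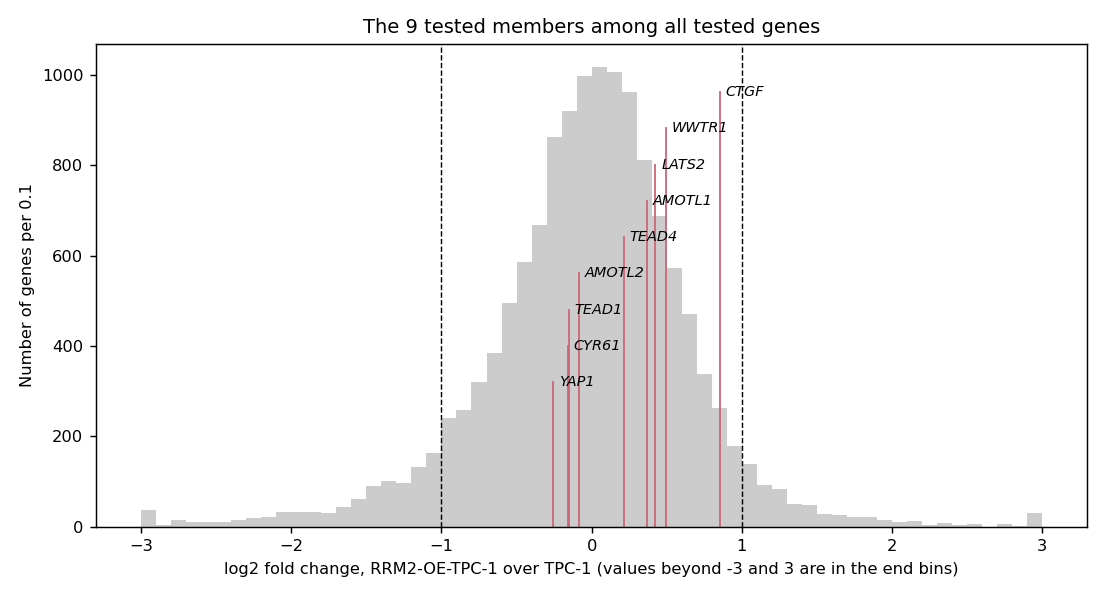
Log2 fold changes (*RRM2*-OE-TPC-1 over TPC-1) of all 13621 tested genes as a histogram in steps of 0.1, with the 9 tested genes of the set as vertical lines and an absolute log2 fold change of 1 as dashed lines. The heights of the vertical lines carry no value; all 9 stand between -0.26 (*YAP1*) and 0.85 (*CTGF*), inside the dashed lines.

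The coactivator genes moved in opposite directions. *YAP1* (ENSG00000137693, chromosome 11, 102110461 to 102233423) stood at 42.4, 41.4 and 41.7 FPKM in wild strain TPC-1 and at 36.6, 35.3 and 33.3 FPKM in *RRM2*-OE-TPC-1. Each *RRM2*-OE-TPC-1 library was below each wild strain library. The mean fell from 41.8 ± 0.525 to 35.1 ± 1.71 FPKM (SD, n = 3), a log2 fold change of -0.26 (standard error 0.0411, 95% interval -0.35 to -0.16, limma adjusted p = 7.42e-04). *WWTR1* (ENSG00000018408, chromosome 3, 149517235 to 149736714) stood at 43.0, 51.0 and 49.4 FPKM in wild strain TPC-1 and at 69.3, 64.0 and 68.4 FPKM in *RRM2*-OE-TPC-1. Here each *RRM2*-OE-TPC-1 library was above each wild strain library. The mean rose from 47.8 ± 4.22 to 67.2 ± 2.84 FPKM (SD, n = 3), a log2 fold change of 0.49 (standard error 0.0653, 95% interval 0.34 to 0.65, limma adjusted p = 2.39e-04).

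The balance between the coactivator transcripts differed between the groups. The ratio of *WWTR1* FPKM to *YAP1* FPKM within a library was 1.01, 1.23 and 1.19 in wild strain TPC-1 and 1.89, 1.81 and 2.06 in *RRM2*-OE-TPC-1. The gene lengths used, 8413 and 6296 bases, cover all annotated exons and not the isoform expressed. Such a ratio therefore does not count molecules, and its difference between the groups is what can be read. The share of *WWTR1* in their summed FPKM was 53.3% ± 2.57 and 65.7% ± 1.44 (SD, n = 3). The sum itself was 89.6 ± 3.70 FPKM in wild strain TPC-1 and 102.3 ± 3.39 FPKM in *RRM2*-OE-TPC-1. For the ratio and for the sum the groups did not overlap, and the two-sided exact permutation p was 0.1, the smallest that 3 libraries against 3 can give. Exons of antisense genes overlap 628 bases of *YAP1* (*AP000942.2*, at 0 FPKM) and 795 bases of *WWTR1* (*WWTR1-AS1*, at a mean of 0.198 FPKM), and since the strand setting of the counting was not stated, their reads cannot be told apart there.

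The TEAD genes also split. *TEAD1* (ENSG00000187079, chromosome 11, 12674591 to 12944483) was the most abundant of the family, at 35.7, 37.1 and 35.2 FPKM in wild strain TPC-1 and 32.0, 32.0 and 33.1 FPKM in *RRM2*-OE-TPC-1. Its groups did not overlap, and it fell by 0.15 on the log2 scale (standard error 0.0346, limma adjusted p = 0.00469). *TEAD4* (ENSG00000197905, chromosome 12, 2959330 to 3040673) stood at 12.3, 11.6 and 13.0 FPKM in wild strain TPC-1 and at 14.01, 15.06 and 13.67 FPKM in *RRM2*-OE-TPC-1. In FPKM as deposited the groups lay apart by less than 1 FPKM, and the log2 fold change was 0.21 (standard error 0.0565, limma adjusted p = 0.0103). With library totals it was 0.15 (limma adjusted p = 0.0428). With voom on the recovered reads it was 0.16 at an adjusted p of 0.0507, which does not pass.

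The remaining family members, which are not in the set but encode the same kind of DNA-binding factor, were both lower in *RRM2*-OE-TPC-1. *TEAD2* stood at 21.1, 21.1 and 18.6 FPKM in wild strain TPC-1 and at 11.96, 13.52 and 12.43 FPKM in *RRM2*-OE-TPC-1, a log2 fold change of -0.67 (limma adjusted p = 4.13e-05). *TEAD3* stood at 6.73, 6.03 and 5.97 FPKM and at 3.86, 5.08 and 5.07 FPKM, a log2 fold change of -0.42 (limma adjusted p = 0.00970). The lowest *TEAD3* value was that of *RRM2*-OE-TPC-1 replicate 1, and without that library the log2 fold change was -0.29. The summed FPKM of *TEAD1* to *TEAD4* was 74.8 ± 1.79 in wild strain TPC-1 against 63.9 ± 1.93 in *RRM2*-OE-TPC-1 (SD, n = 3, two-sided exact permutation p = 0.1). Within that sum the share of *TEAD2* was 27.0% and 19.7%, that of *TEAD4* 16.5% and 22.3% and that of *TEAD3* 8.35% and 7.29%, each without overlap. For *TEAD3* the gap was narrow, with shares of 7.96% to 8.87% in wild strain TPC-1 and of 6.24%, 7.74% and 7.88% in *RRM2*-OE-TPC-1. The lowest of these shares was again that of *RRM2*-OE-TPC-1 replicate 1. The share of *TEAD1* overlapped between the groups, at a mean of 48.2% and 50.7% (two-sided exact permutation p = 0.2).

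**Figure D3:**
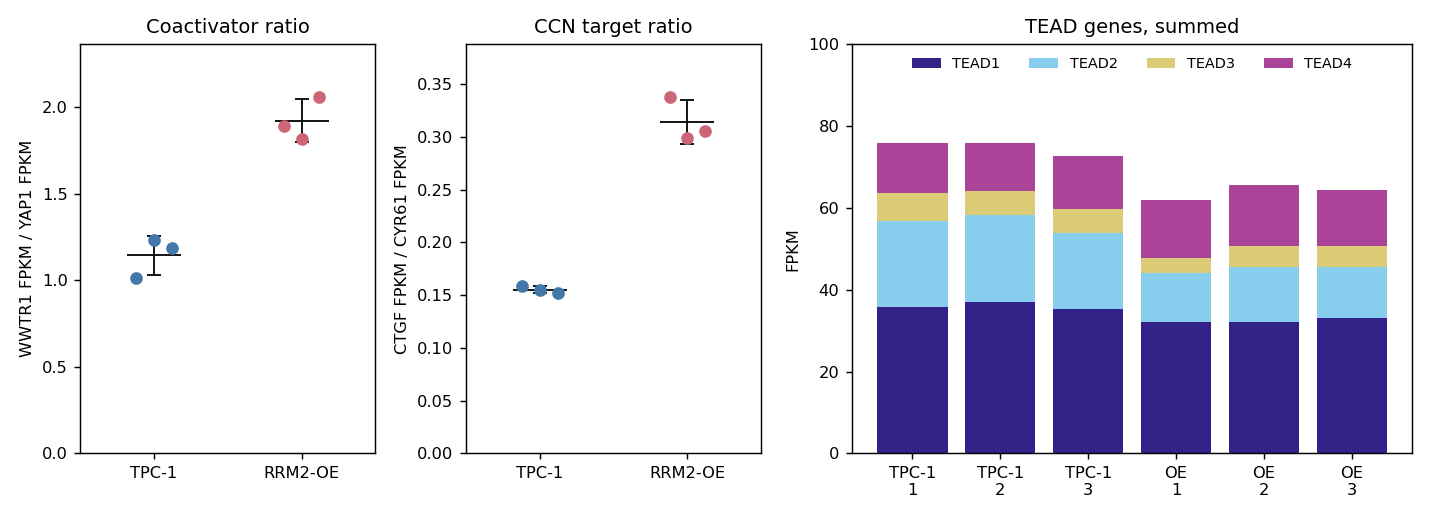
Left and middle, ratios of FPKM within each library (*WWTR1* over *YAP1* and *CTGF* over *CYR61*), with libraries as points, group means as horizontal lines and SDs as error bars; right, FPKM of *TEAD1* to *TEAD4* stacked for each library (OE, *RRM2*-OE-TPC-1). The ratios are 1.01 to 1.23 against 1.81 to 2.06 and 0.152 to 0.159 against 0.299 to 0.337, and the stacks reach 72.7 to 75.9 FPKM in wild strain TPC-1 and 61.8 to 65.7 FPKM in *RRM2*-OE-TPC-1, mostly through a smaller *TEAD2* layer.

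Vestigial-like proteins compete with YAP and TAZ for TEAD, and their genes were named after their values were seen. *VGLL4*, the only one of the 4 that was tested, was at 2.88, 3.51 and 3.60 FPKM in wild strain TPC-1 and at 2.93, 2.86 and 3.13 FPKM in *RRM2*-OE-TPC-1. The groups overlapped, and the log2 fold change of -0.15 (95% interval -0.38 to 0.07, limma adjusted p = 0.199) did not pass the test. *VGLL1* and *VGLL2* had 0 reads in every library, and *VGLL3* had 0 reads in wild strain TPC-1 and 3 over the *RRM2*-OE-TPC-1 libraries. Of the 10 coactivator, TEAD and vestigial-like genes 7 were tested, 2 passed the adjusted p threshold upward and 4 downward (34.9% and 32.7% of all tested genes). None reached a log2 fold change of 1 in size, and 11.5% of all tested genes passed both thresholds. Their median log2 fold change was -0.15.

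Among the targets, *CTGF* and *CYR61* parted. *CTGF* (ENSG00000118523, chromosome 6, 131948176 to 131951373), with the 3 TEAD cores shown above, stood at 42.3, 39.7 and 39.3 FPKM in wild strain TPC-1 and at 76.8, 70.4 and 72.2 FPKM in *RRM2*-OE-TPC-1. The gap between the groups was many times the spread within them. The mean rose from 40.4 ± 1.66 to 73.1 ± 3.35 FPKM (SD, n = 3), which is 1.81 times the wild strain level and a log2 fold change of 0.85 (standard error 0.0454, 95% interval 0.75 to 0.96, limma adjusted p = 1.59e-06). An antisense gene, *AL133346.1*, shares 195 exonic bases with *CTGF*, at a mean of 0.0412 FPKM.

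*CYR61* (ENSG00000142871, chromosome 1, 85580761 to 85583962), the paralog of *CTGF* and the most abundant gene of the set, stood at 266.4, 255.3 and 259.4 FPKM in wild strain TPC-1 and at 227.7, 235.2 and 236.0 FPKM in *RRM2*-OE-TPC-1. Each *RRM2*-OE-TPC-1 library was below each wild strain library. The mean fell from 260.4 ± 5.58 to 233.0 ± 4.56 FPKM (SD, n = 3), a log2 fold change of -0.16 (standard error 0.0349, 95% interval -0.24 to -0.08, limma adjusted p = 0.00384). In FPKM as deposited, *CTGF* gained about as many FPKM as *CYR61* lost. Their sum overlapped between the groups, at 300.8 ± 7.09 and 306.1 ± 1.87 FPKM (two-sided exact permutation p = 0.4). This overlap is that of the deposited scaling, and the sum was not taken under other scalings. With library totals the log2 fold changes were 0.79 for *CTGF* and -0.22 for *CYR61*. The share of *CTGF* does not depend on the scaling between libraries. That share of the sum was 13.4% ± 0.277 in wild strain TPC-1 against 23.9% ± 1.18 in *RRM2*-OE-TPC-1 (SD, n = 3).

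*ANKRD1* (ENSG00000148677, chromosome 10, 90912096 to 90921276) was nearly silent in the wild strain. It stood at 0.0303, 0 and 0.0317 FPKM in wild strain TPC-1, which is 1, 0 and 1 reads, and at 0.664, 0.295 and 0.381 FPKM in *RRM2*-OE-TPC-1, which is 19, 10 and 12 reads. Every *RRM2*-OE-TPC-1 library was above every wild strain library, at a level that stayed below 1 FPKM. Summed, 2 reads stood against 41, a ratio of 20.5 per read on genes with an exact 95% interval of 5.32 to 175 that covers counting error only. Fitted without the filter on low values, the log2 fold change was 2.13 (limma adjusted p = 0.00446), and with pseudocounts of 1 and 0.01 the difference in mean log2 value was 0.49 and 4.07, so its size is not fixed by these data.

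The relatives of these targets were mostly too low to test. In the CCN family of matricellular proteins, *NOV* had 14, 16 and 10 reads in wild strain TPC-1 and 30, 20 and 32 in *RRM2*-OE-TPC-1, a ratio of the sums of 2.05 (exact 95% counting interval 1.39 to 3.07). Fitted without the filter on low values, *NOV* had a log2 fold change of 0.89 (limma adjusted p = 0.0764), which does not pass. *WISP2* had 29 reads in all wild strain libraries and 5 over the *RRM2*-OE-TPC-1 libraries (ratio 0.172, 0.0521 to 0.450). In the same fit without the filter its log2 fold change was -0.85 (limma adjusted p = 0.0363), which passes the adjusted p threshold. With pseudocounts of 1 and 0.01 the difference in mean log2 value was -0.13 and -2.11, so the size is not fixed. *WISP3* had 24 and 7 reads. All 7 of these *WISP3* reads were in *RRM2*-OE-TPC-1 replicate 2, so no ratio is given. *WISP1* had 0 reads in every library. Of the 6 CCN genes 2 were tested, *CTGF* and *CYR61*, with 1 called in each direction at the adjusted p threshold (34.9% and 32.7% of all tested genes). In the muscle ankyrin repeat family of *ANKRD1*, *ANKRD23* had 38 reads in each group, and *ANKRD2*, the only one of the 3 that was tested, stood at 0.124, 0.533 and 0.908 FPKM in wild strain TPC-1 and at 1.29, 1.57 and 1.17 FPKM in *RRM2*-OE-TPC-1. Its groups did not overlap and the log2 fold change was 1.45 (standard error 0.481, limma adjusted p = 0.0267), with a wide spread among the wild strain libraries. The call was lost without *RRM2*-OE-TPC-1 replicate 1 or 2 (adjusted p = 0.0542 and 0.0707 from limma) and without the filter on low values (0.103), and without wild strain replicate 1 the log2 fold change was 0.84.

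The feedback regulators that bind YAP at junctions, the angiomotins, differed from one another. *AMOTL1* (ENSG00000166025, chromosome 11, 94706431 to 94876753) was at 10.7 FPKM in each wild strain library and at 13.8, 13.9 and 13.9 FPKM in *RRM2*-OE-TPC-1. The libraries of a group hardly differed, and the log2 fold change was 0.37 (standard error 0.0358, limma adjusted p = 3.93e-05). *AMOTL2* (ENSG00000114019, chromosome 3, 134355874 to 134375479), the most abundant angiomotin, was at 44.3, 43.3 and 43.1 FPKM in wild strain TPC-1 and at 41.2, 41.1 and 41.0 FPKM in *RRM2*-OE-TPC-1. The gap between the groups was close to 2 FPKM, and the log2 fold change of -0.08 (standard error 0.0293, limma adjusted p = 0.0343) was the smallest of the set. Leaving out any of the 6 libraries, wild strain or *RRM2*-OE-TPC-1, ended this call, with log2 fold changes of -0.09 to -0.07 and adjusted p of 0.0559 to 0.0959.

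*AMOT*, the founding angiomotin and not in the set, was at 3.91, 4.28 and 3.96 FPKM in wild strain TPC-1 and at 1.89, 1.99 and 1.81 FPKM in *RRM2*-OE-TPC-1. It fell by 1.06 on the log2 scale (standard error 0.0778, limma adjusted p = 8.64e-06), past both thresholds, and by 0.80 with a pseudocount of 1. The ratio of *AMOTL2* FPKM to *AMOTL1* FPKM was 4.06 ± 0.0499 in wild strain TPC-1 against 2.96 ± 0.0175 in *RRM2*-OE-TPC-1 (SD, n = 3, two-sided exact permutation p = 0.1). Exons of *AP002383.2*, an antisense gene at a mean of 0.0194 FPKM, overlap 496 bases of *AMOTL1*, and *RPL39P5*, a pseudogene on the same strand at 0.0257 FPKM, overlaps 187 bases of *AMOTL2*.

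*LATS2* (ENSG00000150457, chromosome 13, 20973032 to 21061547), the LATS kinase gene that YAP and TEAD induce, stood at 14.1, 13.6 and 14.3 FPKM in wild strain TPC-1 and at 19.6, 18.2 and 18.6 FPKM in *RRM2*-OE-TPC-1. All *RRM2*-OE-TPC-1 libraries were above the wild strain, and the log2 fold change was 0.42 (standard error 0.0430, limma adjusted p = 5.17e-05). Its paralog *LATS1* moved the other way, from 7.74, 7.91 and 7.73 FPKM to 6.86, 6.11 and 6.93 FPKM, a log2 fold change of -0.23 (limma adjusted p = 0.00899). The ratio of *LATS2* FPKM to *LATS1* FPKM was 1.80 ± 0.0715 in wild strain TPC-1 against 2.84 ± 0.146 in *RRM2*-OE-TPC-1 (SD, n = 3, two-sided exact permutation p = 0.1).

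The upstream pathway was read from lists of kinases and adaptors (19 genes) and of junction and scaffold proteins (13 genes). Of 18 kinases and adaptors tested, 9 were higher and 3 lower at the adjusted p threshold, beside 34.9% and 32.7% of all tested genes, with a median log2 fold change of 0.20. Called in either direction were 12 of the 18, which is close to the 67.6% of all tested genes. Genes of this list other than *LATS1*, *LATS2* and *FRMD6* were named after their values were seen. Higher besides *LATS2* were *STK4* (0.21), the gene of an MST kinase, and its partner *SAV1* (0.33). The kinase genes *MAP4K4* (0.48) and *TAOK2* (0.23), *FAT1* (0.45) and *WWC1* (0.42), which encodes KIBRA, were also higher. *FRMD6*, the gene of a FERM domain protein that acts upstream of MST, rose from 6.91 to 14.7 mean FPKM, a log2 fold change of 1.08 (limma adjusted p = 7.09e-07). It was the only gene of the 18 past both thresholds, beside 11.5% of all tested genes, 4.48% upward. With a pseudocount of 1 it stood at 0.99. *NF2* encodes merlin, which recruits LATS to the membrane. It stood at 10.8, 9.58 and 10.8 FPKM in wild strain TPC-1 and at 21.09, 20.62 and 19.96 FPKM in *RRM2*-OE-TPC-1, a log2 fold change of 0.98 (limma adjusted p = 2.04e-06), just under the threshold of 1. Without wild strain replicate 1, wild strain replicate 3 or *RRM2*-OE-TPC-1 replicate 3 it was 1.01, 1.01 and 1.00, and 2 genes of the list then passed both thresholds. *STK3*, *MOB1A* and *MOB1B*, with log2 fold changes of 0.08, -0.01 and 0.18, did not pass the test, and *WWC3* (-0.41), *FAT4* (-0.46) and *LATS1* (-0.23) were lower.

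Of 12 junction and scaffold genes tested, 4 were higher and 5 lower at the adjusted p threshold (34.9% and 32.7% of all tested genes), and the median log2 fold change was -0.05. Genes of this list outside the angiomotins were also named after their values were seen. In log2 fold change the polarity gene *SCRIB* was highest at 0.77 and *AMOT* lowest at -1.06. *PTPN14*, whose product binds YAP, stood at -0.46, and the LATS binders *AJUBA* and *LIMD1* parted at -0.47 and 0.52. Over these lists and the list of coactivators, TEAD and vestigial-like factors, 37 of 42 genes were tested, 15 passed upward and 12 downward at the adjusted p threshold (34.9% and 32.7% of all tested genes), and 1 in each direction passed both thresholds (4.48% and 6.97%). The median log2 fold change of the 37 was 0.08, beside 0.01 for all tested genes.

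**Figure D4:**
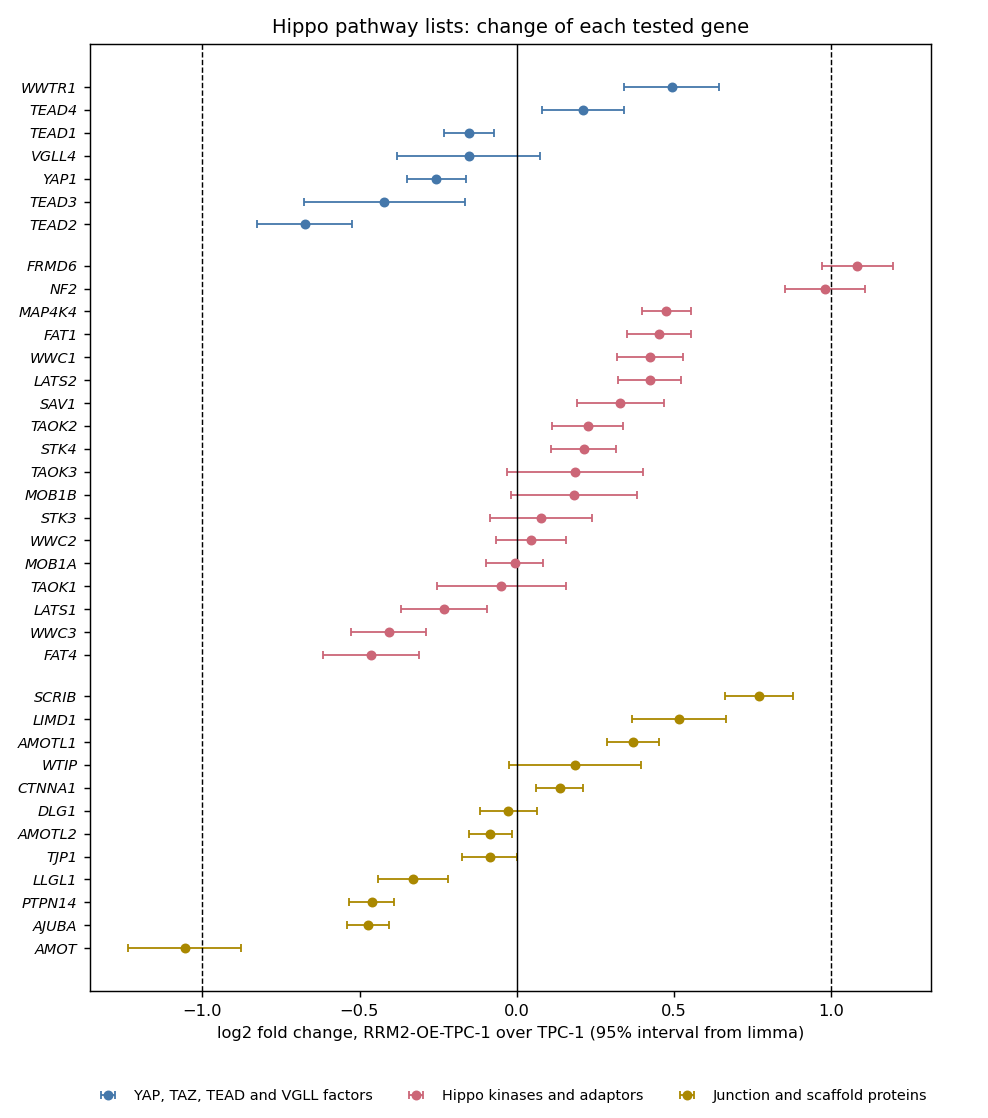
Log2 fold change (*RRM2*-OE-TPC-1 over TPC-1) of each tested gene of the lists of coactivators, TEAD and vestigial-like factors, kinases and adaptors, and junction and scaffold proteins. Points are limma estimates, bars are 95% intervals and dashed lines mark -1 and 1. *FRMD6* at 1.08 and *AMOT* at -1.06 lie beyond the dashed lines, and each list has genes on both sides of 0.

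A list of 22 genes that respond to YAP and TAZ in many cell types gave a wider view of the targets, 5 of them in the set. Of the 17 others, all of which were tested, 9 were higher and 7 lower at the adjusted p threshold (34.9% and 32.7% of all tested genes), and 1 passed both thresholds (11.5%). Their median log2 fold change was 0.16, and the median absolute value 0.45, beside 0.37 for all tested genes. *F3*, which encodes tissue factor, rose from 1.61, 1.74 and 1.75 FPKM to 3.87, 4.24 and 4.06 FPKM, a log2 fold change of 1.21 (standard error 0.0784, limma adjusted p = 4.25e-06), or 0.91 with a pseudocount of 1.

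The further genes of this list named here were chosen after their values were seen. *FJX1* (0.91), *AXL* (0.47), a receptor tyrosine kinase, and *CRIM1* (0.47) rose on the log2 scale. *NUAK2*, a kinase gene, fell from 25.3, 23.9 and 24.6 FPKM to 12.2, 12.4 and 13.2 FPKM, a log2 fold change of -0.96 (limma adjusted p = 7.42e-07), and *IGFBP3*, a secreted binding protein of insulin-like growth factors, fell from 300.4, 287.1 and 293.4 FPKM to 154.2, 154.2 and 157.9 FPKM, a log2 fold change of -0.92 (limma adjusted p = 2.69e-07). With FPKM rescaled to library totals the log2 fold change of *NUAK2* was -1.02, past both thresholds. *IGFBP3* (293.6 mean FPKM) and *CYR61* (260.4), the most abundant targets in wild strain TPC-1, were both lower in *RRM2*-OE-TPC-1.

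**Figure D5:**
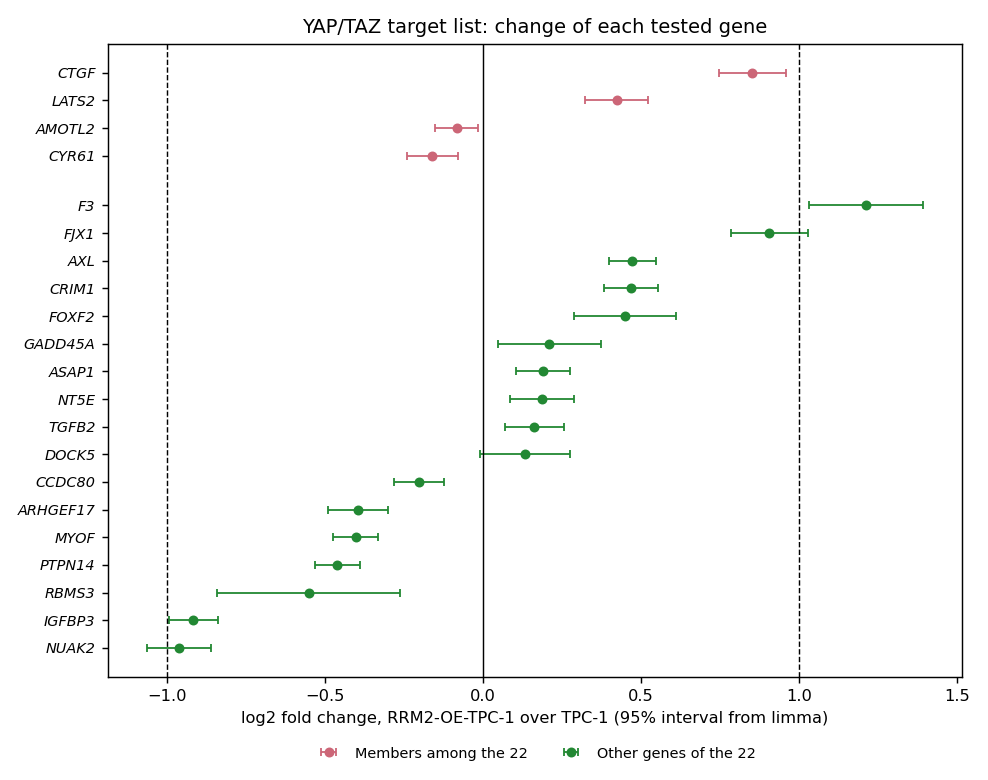
Log2 fold change (*RRM2*-OE-TPC-1 over TPC-1) of the 21 tested genes of a list of 22 YAP and TAZ targets, with the 4 tested genes of the set above and the other 17 below. Points are limma estimates, bars are 95% intervals and dashed lines mark -1 and 1; the values run from -0.96 (*NUAK2*) to 1.21 (*F3*) without a common direction.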

How the data were processed

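RNA of wild strain TPC-1 and *RRM2*-OE-TPC-1 cells was sequenced, in 3 libraries of each, which the paper calls biological replicates. The labels describe ribosomal RNA removal and RNase R digestion, the methods poly(A) selection. After trimming (fastp), the authors mapped reads to GRCh38.p14 with HISAT2 2.0.5 (submitters' processing notes), counted them with FeatureCounts 1.5.0 and deposited FPKM; the strand setting was not stated. All 58735 gene identifiers and positions match GENCODE 29. FPKM times gene length were whole multiples of a step per library for 100% of values within 0.001, which gave the reads.

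Groups follow the sample titles. Values were tested as log2(FPKM + 0.1) with limma 3.58.1 (lmFit, eBayes with trend; R 4.3.3), after a filter of 0.5 FPKM and 10 reads in 3 libraries, with Benjamini-Hochberg adjustment over 13621 genes; scripts were tested on simulated data. Ratios used exact permutation tests (Python 3.11.15, scipy 1.17.1). Reads are not independent molecules, so counting intervals cover counting error only. Genes named are *RRM2*, the 10 genes, their paralogs and, per list, up to 3 genes per direction past both thresholds; exceptions are stated. The genes and lists were chosen with earlier results of these data known. Alternatives were pseudocounts of 1 and 0.01, no filter, the FPKM minimum alone, library totals, median-of-ratios factors, voom on reads, a replicate block and leaving out each library. The median-of-ratios factors nearly repeat the deposited scaling. Libraries of an empty vector were not analysed here. Some markers of the lists are not reported here.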

Additional observations from a re-analysis of the deposited data

How the results depend on the processing

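Log2 fold changes under every alternative were compared for the 9 tested genes of the set, *RRM2* and 12 others named above, and none changed direction. *MOB1A*, named above but not called, ran from -0.03 to 0.02 with libraries left out in turn. The numbers of genes past both thresholds depended most on the pseudocount. With a pseudocount of 1, 716 genes passed in place of 1560 (303 higher and 413 lower), and the kinases and adaptors, the junction and scaffold genes, the ankyrin repeat family and the 22 targets each had 0. Without the filter on low values, 920 genes rose past both thresholds in place of 610, *ANKRD1* passed as the 1 gene of the set, and 2 of the 22 targets did. Library totals and voom on recovered reads also gave 2 of the 22, *F3* and *NUAK2*. Library totals moved the median log2 fold change of all genes by -0.06, from 0.01 to below 0, and that of *WWC2*, which was not called, from 0.05 to -0.01. With voom, *TEAD4* was at 0.16 with an adjusted p of 0.0507. Leaving out one library at a time, the log2 fold change of *AMOTL2* ran from -0.090 to -0.071 with adjusted p from 0.0559 to 0.0959, the kinases and adaptors past both thresholds numbered 1 to 2 and the ankyrin repeat family 0 to 1.

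Replicate numbers did not pair the libraries: deviations of same-numbered libraries correlated at -0.01, -0.01 and -0.06, and no library correlated best with its own number. With the number as a replicate block, 8934 genes passed the adjusted p threshold in place of 9207 and 8 genes of the set in place of 9; *AMOTL2*, at -0.083, had an adjusted p of 0.0806. Depth limits the values of *ANKRD1* and of the untested CCN, ankyrin repeat and vestigial-like genes. With 3 libraries against 3, an exact permutation test cannot go below 0.1.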
